A study of Homo sapiens with 39 samples.

Results

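The HOX cluster genes are the 39 human genes named HOXA, HOXB, HOXC or HOXD with a number from 1 to 13 and nothing after it, so that antisense and readthrough genes were left out. All 39 were among the 23710 gene symbols of each table: 11 in the HOXA cluster, 10 in HOXB, 9 in HOXC and 9 in HOXD. They were chosen by name and not by their values. RNA sequencing had been run on 39 libraries in 9 groups of human cell lines in which TRIM37, a ubiquitin ligase gene, was disrupted or induced. hTERT-RPE1 is a retinal pigment epithelial line immortalised with telomerase, and CHP-134 is a neuroblastoma line. RPE1 gave 9 libraries of a TRIM37 knockout and 9 of wild type, and which clone the knockout is, or whether it is 1 clone, is not said in the labels. CHP-134 gave 3 libraries of TRIM37 mutant clone 2, 3 of mutant clone 1 and 3 of wild type, and the labels call the genotype of both mutants a partial knockout. RPE1 with a doxycycline-inducible TRIM37 (TetOn) gave 3 libraries under 1 µM doxycycline for 24 h and 3 untreated ones for clone 5, and 3 and 3 for clone 4. Each CHP-134 mutant and each TetOn line is 1 clone, and no label says that the libraries of a group came from separate cultures. Wild type RPE1 titles carry a pair of numbers, giving 3 sets of 3, and knockout titles carry a single number from 1 to 9. Whether a set is a repeat of 1 culture is not stated, so the errors below may be partly technical.

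HOX genes encode homeodomain transcription factors that give cells their position along the body axis. In each cluster the low-numbered genes lie at the 3′ end and are active early and towards the head, and the high-numbered ones lie at the 5′ end and are active later and towards the tail, an order called collinearity. Genes with the same number in different clusters are paralogs. Polycomb complexes keep HOX clusters silent in cells that do not use them, Trithorax complexes keep them active, and PBX, MEIS and PKNOX proteins (the TALE class) bind DNA together with HOX proteins. The forebrain and the eye develop without HOX expression, whereas trunk neural crest, from which neuroblastoma arises, uses HOX genes.

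The promoters of 4 members on which the results turn are printed here, since HOXA3 rose in the RPE1 knockout, HOXA7 rose in both CHP-134 mutant clones, and HOXA13 and HOXC4 differed between those clones. They are the 250 bases before the annotated start, from RefSeq on GRCh38.p14, given 5′ to 3′ on the strand of the gene. Capitals mark matches to the searched motifs on either strand. The motif CCAAT appears in the printed lines as its reverse complement ATTGG where the match is on the opposite strand. The motif TATAAA appears likewise as TTTATA in the printed line of HOXA3. The remaining capitals mark the motif TCATGTG in the printed orientation. The positions are chr7:27152584-27152833 (minus strand) for HOXA3, chr7:27156676-27156925 (minus) for HOXA7, chr7:27200092-27200341 (minus) for HOXA13 and chr12:54016638-54016887 (plus) for HOXC4.
HOXA3: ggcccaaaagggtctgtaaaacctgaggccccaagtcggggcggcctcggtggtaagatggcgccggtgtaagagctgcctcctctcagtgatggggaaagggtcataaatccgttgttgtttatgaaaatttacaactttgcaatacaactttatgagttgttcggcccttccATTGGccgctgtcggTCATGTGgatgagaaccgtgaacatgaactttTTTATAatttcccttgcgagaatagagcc
HOXA7: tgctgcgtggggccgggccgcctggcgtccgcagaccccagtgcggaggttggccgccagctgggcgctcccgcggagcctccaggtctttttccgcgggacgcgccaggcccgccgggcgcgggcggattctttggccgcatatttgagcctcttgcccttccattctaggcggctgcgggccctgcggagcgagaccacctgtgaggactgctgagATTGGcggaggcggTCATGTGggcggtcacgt
HOXA13: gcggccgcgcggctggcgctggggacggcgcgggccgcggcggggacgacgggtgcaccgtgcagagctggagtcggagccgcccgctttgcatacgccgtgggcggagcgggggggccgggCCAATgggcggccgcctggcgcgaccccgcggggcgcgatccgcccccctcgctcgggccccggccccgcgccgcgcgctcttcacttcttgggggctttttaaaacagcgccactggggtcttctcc
HOXC4: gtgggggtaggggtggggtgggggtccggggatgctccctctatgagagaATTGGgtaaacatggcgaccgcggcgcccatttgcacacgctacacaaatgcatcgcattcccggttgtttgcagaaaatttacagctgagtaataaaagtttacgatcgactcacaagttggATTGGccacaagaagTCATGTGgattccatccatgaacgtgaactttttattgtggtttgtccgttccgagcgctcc
In HOXA3, HOXA7 and HOXC4 the letters ATTGG stood 10, 9 and 10 bases before TCATGTG on the printed strand, in the part of the window nearest to the start of the gene. The promoter table holds 9 HOXA, 1 HOXB (HOXB1), 2 HOXC and 8 HOXD genes, so the shares below do not cover the HOXB genes called in the knockout. This arrangement, with 8 to 12 bases between and on either strand, was found in 6 of 20 HOX promoters (HOXA2, HOXA3, HOXA7, HOXC4, HOXC5 and HOXD10), or 30%, against 0.0797% of all 35116 entries. TCATGTG was looked for after it had been seen in these promoters, so the comparison is a description. The entries of HOXC4 and HOXC5 are the same 250 bases, since the 2 genes share an annotated start. CCAAT was in 17 of the 20 HOX promoters (85%) against 32% of all entries, and TATAAA in 4 (20%) against 10.7%. TGATTGAT, a sequence bound by PBX and HOX proteins together, was in HOXA2 and HOXD11 (10%, against 0.416%). TAATTA, a homeodomain core, was in HOXD3 and HOXD11 (10%, against 4.35%), and AGGTCA, which nuclear receptors bind as part of a repeat, was in none of the 20, against 12.1%. No searched motif contains another. The median ratio of observed to expected CpG was 0.888 in HOX promoters and 0.558 over all entries, at a median GC content of 59% and 58%.

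The values are the authors' comparisons of the altered group with its control, 1 table per comparison. Each gene has a mean count over the libraries of both groups, a log2 fold change, the standard error of that change (SE) and a p-value adjusted over genes (q). No value per library was analysed here and depth is unknown. Where the Status was Low, the mean count did not exceed 10 and the q was not usable, so such genes are described by the mean count. A gene was called at q under 0.05. TRIM37 set the direction of each table: the authors' deposited tables gave it log2 fold changes of -1.95 in the RPE1 knockout, -1.75 in mutant clone 2, -1.66 in mutant clone 1, 2.64 in TetOn clone 5 and 3.19 in TetOn clone 4. In the authors' deposited table of the RPE1 knockout 5 of 10 retinal pigment epithelium markers passed the count limit, KRT8, KRT18, MITF, OTX2 and PMEL, while RPE65, which defines the mature tissue, had a mean count of 0.173. MYCN, the oncogene of this neuroblastoma type, had mean counts of 46600 and 49700 in the authors' deposited tables of clone 2 and clone 1, while TH and DBH, the catecholamine enzymes, stayed under 10. Levels of each group named below were worked out from the authors' mean count and fold change. Folds of the scarcest genes lie near 0 in these tables, none over 0.83 in size on the log2 scale for a mean count under 1 in the RPE1 knockout, so the level of a group with few counts can be set too high. In these bulk samples, more cells expressing a gene and more RNA per cell cannot be told apart.

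The 2 cell lines used nearly separate sets of HOX genes. Of the 39, 9 exceeded a mean count of 10 in a table of RPE1 and 18 in the tables of CHP-134, 1 gene (HOXC8) did so in both lines and 13 in none. The share of all genes over 10 in 1 line but not the other was not worked out. The separation is thus not read as particular to HOX genes. In the authors' deposited table of the RPE1 knockout, the mean counts of HOXB summed to 829, beside 45.4 for HOXA, 88.5 for HOXC and 17.3 for HOXD, without scaling to gene length. These sums pool knockout and wild type. HOXB9, the highest HOXB gene, stood at an implied 704 in the knockout and 16 in wild type RPE1. HOXA3, HOXB5 and HOXB8 had implied wild type levels under 10, so they are among the 9 through the knockout only. In CHP-134 the HOXB cluster was at or near 0: its 10 genes together had a mean count of 0.303 in the authors' deposited table of clone 2 and 0.294 in that of clone 1. CHP-134 instead held 4 HOXA, 6 HOXC and 8 HOXD genes above 10 in both tables. In the HOXA cluster of CHP-134 the usable genes were HOXA7, HOXA10, HOXA11 and HOXA13. HOXA2 to HOXA6, towards the 3′ end, had mean counts of at most 2.4 in the authors' deposited tables. HOXA9, which lies between HOXA7 and HOXA10, had 0 in the table of clone 2 and 0.142 in that of clone 1. The readthrough gene HOXA10-HOXA9 has a symbol of its own in the tables. The authors' counting may thus have assigned reads of HOXA9 to it or dropped them, which was not tested. HOXB1, a hindbrain gene, was listed at 0 in all 5 tables.

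**Figure D1:**
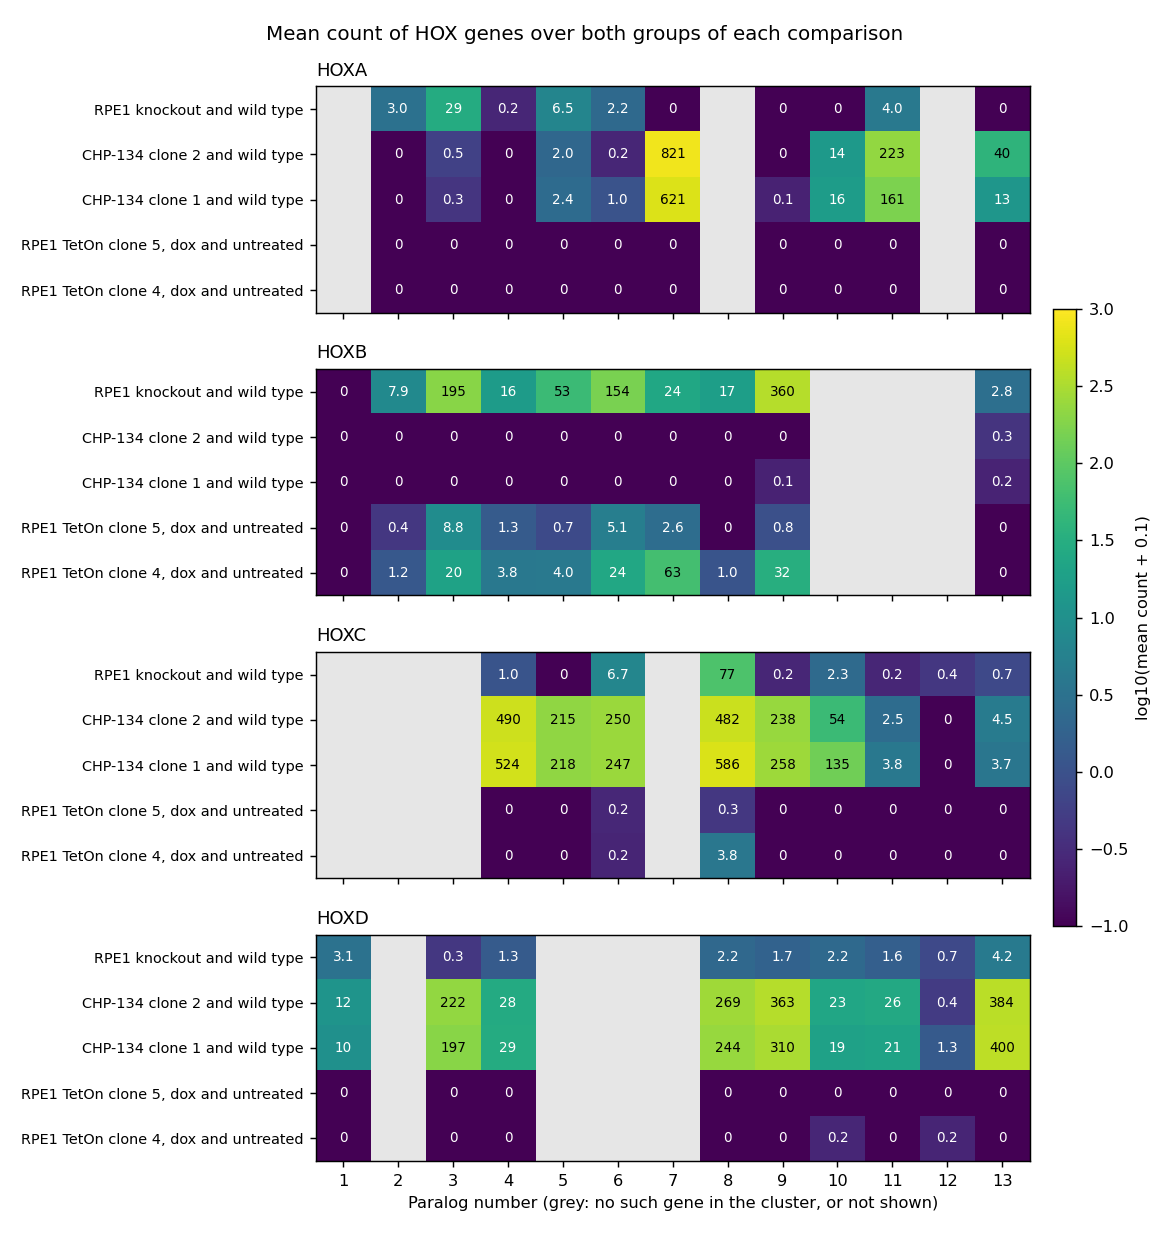
Mean count of each HOX gene over the libraries of both groups in each of the 5 comparisons, by cluster (panels), paralog number (horizontal axis) and comparison (rows); colour is log10 of the mean count plus 0.1, the number is the mean count, and grey marks paralog numbers that the cluster lacks or that are not shown. HOXB genes reach mean counts of up to 360 in RPE1 and at most 0.303 in CHP-134, where HOXC and HOXD genes reach mean counts of up to 586 and 400, and both TetOn lines have HOXA at 0.

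In the RPE1 knockout 9 HOX genes had a usable test, and all 9 were higher than in wild type. They were HOXA3, HOXC8 and 7 of the 10 HOXB genes. The median log2 fold change of these 9 was 3.36, beside -0.002 over all 13002 usable genes, of which 26.6% were called higher, 26.9% lower and 53.6% either way. Neither the count of 9 nor their median is support for a change of HOX genes as a group, since HOXA3, HOXB5 and HOXB8 had implied wild type levels under 10 and passed the limit only through the knockout. The other 6 had implied wild type levels of 10 or more.

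HOXB9, a posterior gene of the thoracic region, showed the largest difference of the members. The authors' deposited table gave it a mean count of 360, which implies 704 in the knockout against 16 in wild type, and a log2 fold change of 5.46 (SE 0.201, q = 0). A q of 0 lies below the smallest number the file could hold. HOXB6 stood at an implied 288 in the knockout against 19.8 in wild type, with a log2 fold change of 3.86 (SE 0.197, q = 0) in the authors' deposited table. HOXB3, a hindbrain gene, stood at an implied 349 in the knockout against 41.5 in wild type, with a log2 fold change of 3.07 (SE 0.146, q = 0) in the authors' deposited table. These 3 genes had the smallest SEs among the 7 HOXB genes.

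HOXB5, which acts in gut neural crest and lung, stood at an implied 100 in the knockout against 5.79 in wild type, with a log2 fold change of 4.11 (SE 0.318, q = 5.57e-37) in the authors' deposited table. HOXB8, known from the mouse for its role in the spinal cord, stood at an implied 29.5 in the knockout against 4.73 in wild type, with a log2 fold change of 2.64 (SE 0.381, q = 2.28e-11) in the authors' deposited table. HOXB4, a gene of blood stem cells, and HOXB7 had the smallest fold changes of the 9. Against a null rescaled to the spread of the statistics over all genes, where 9.7% of genes were called, HOXB4, HOXB7 and HOXB8 were not called. HOXB4 stood at an implied 21 in the knockout against 10 in wild type, with a log2 fold change of 1.07 (SE 0.322, q = 0.00217) in the authors' deposited table. HOXB7 stood at an implied 32.8 in the knockout against 14.6 in wild type, with a log2 fold change of 1.17 (SE 0.302, q = 0.00033) in the authors' deposited table. The size of the change did not run along the cluster: from HOXB3 to HOXB9 the authors' deposited table gave 3.07, 1.07, 4.11, 3.86, 1.17, 2.64 and 5.46, so neighbouring genes differed by more than their SEs, apart from HOXB5 and HOXB6.

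HOXA3, a paralog of HOXB3 that patterns the pharyngeal arches, was the single HOXA gene above the limit. It stood at an implied 54.3 in the knockout against 3.1 in wild type, with a log2 fold change of 4.13 (SE 0.379, q = 1.06e-26) in the authors' deposited table. HOXC8, a paralog of HOXB8, stood at an implied 141 in the knockout against 13.7 in wild type, with a log2 fold change of 3.36 (SE 0.239, q = 1.4e-43) in the authors' deposited table. HOXC8 lies on chromosome 12, whose 590 other genes of mean count 100 or more had a median log2 fold change of 0.51, whereas the medians were 0.0023 on chromosome 7 (HOXA), -0.0033 on chromosome 17 (HOXB) and -0.021 on chromosome 2 (HOXD). The change of HOXC8 was larger than this shift, and its call did not change when the chromosome median was subtracted.

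The other 30 members stayed under the limit in this comparison. Of these, 6 were listed at 0 in the authors' deposited table (HOXA7, HOXA9, HOXA10, HOXA13, HOXB1 and HOXC5), 14 were under 1 with these included, and 16 had a mean count of 1 or more. The highest were HOXB2 at 7.9, HOXC6 at 6.73, HOXA5 at 6.53, HOXD13 at 4.22, HOXA11 at 3.99, HOXD1 at 3.1 and HOXA2 at 3. The rest were between 1.01 (HOXC4) and 2.77 (HOXB13), with HOXC10 at 2.33, HOXA6 at 2.22, HOXD10 at 2.21, HOXD8 at 2.17, HOXD9 at 1.68, HOXD11 at 1.55 and HOXD4 at 1.32 in the authors' deposited table. When every gene with an SE was tested regardless of count, 40.6% of 17837 genes were called, 3647 higher and 3591 lower, and 6 of the low members were called as well, all higher in the knockout: log2 fold changes in the authors' deposited table were 2.43 for HOXA5, 1.82 for HOXC6, 1.57 for HOXD1, 1.42 for HOXA2, 1.29 for HOXB2 and 1.15 for HOXA6. None of these has a paralog number above 6, and HOXC4 (0.53) and HOXD4 (-0.24) were low-numbered genes without a call. The low members with numbers from 8 up that had a mean count of 1 or more had log2 fold changes between -0.18 (HOXC10) and 0.85 (HOXA11) in the authors' deposited table, none of them called in that test. HOXB9 and HOXC8, with high numbers, and HOXA3 and HOXB3, with low ones, were among the called genes, so the calls were not confined to 1 end of the clusters.

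The 4 nearest protein-coding genes on each side of each cluster were read as the surroundings. Of the 26 of 32 with a usable test in the knockout, 12 were called higher and 6 lower, with a median log2 fold change of 0.06. Over all usable genes, 26.6% were called higher and 26.9% lower. The counts of neighbours called are not read as a result about the surroundings. SKAP2, an adaptor gene at the 3′ side of the HOXA cluster, was far outside the rest: its mean count was 537 and its log2 fold change 3.63 (SE 0.103, q = 0) in the authors' deposited table. SNX10, on the far side of SKAP2, was under the limit with a mean count of 2 in the authors' deposited table. Its log2 fold change there was 1.33 (SE 0.41), without a usable test. At the other end of the HOXA cluster, beyond EVX1, which was listed at 0, HIBADH had a log2 fold change of -0.041 (q = 0.261) in the authors' deposited table. On the HOXB side the genes on both flanks showed no such change: CALCOCO2 had 0.022 (q = 0.577), CBX1 -0.17 (q = 7.55e-12) and SKAP1 -0.76 (q = 0.0791) in the authors' deposited table. Around HOXC, 6 of 8 neighbours were called higher and none lower, from 0.23 (HNRNPA1) to 0.71 (ATP5G2) in the authors' deposited table, beside the chromosome median of 0.51. Around HOXD, 3 of 7 were higher and 3 lower, the largest being MTX2 at 0.30 in the authors' deposited table.

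**Figure D2:**
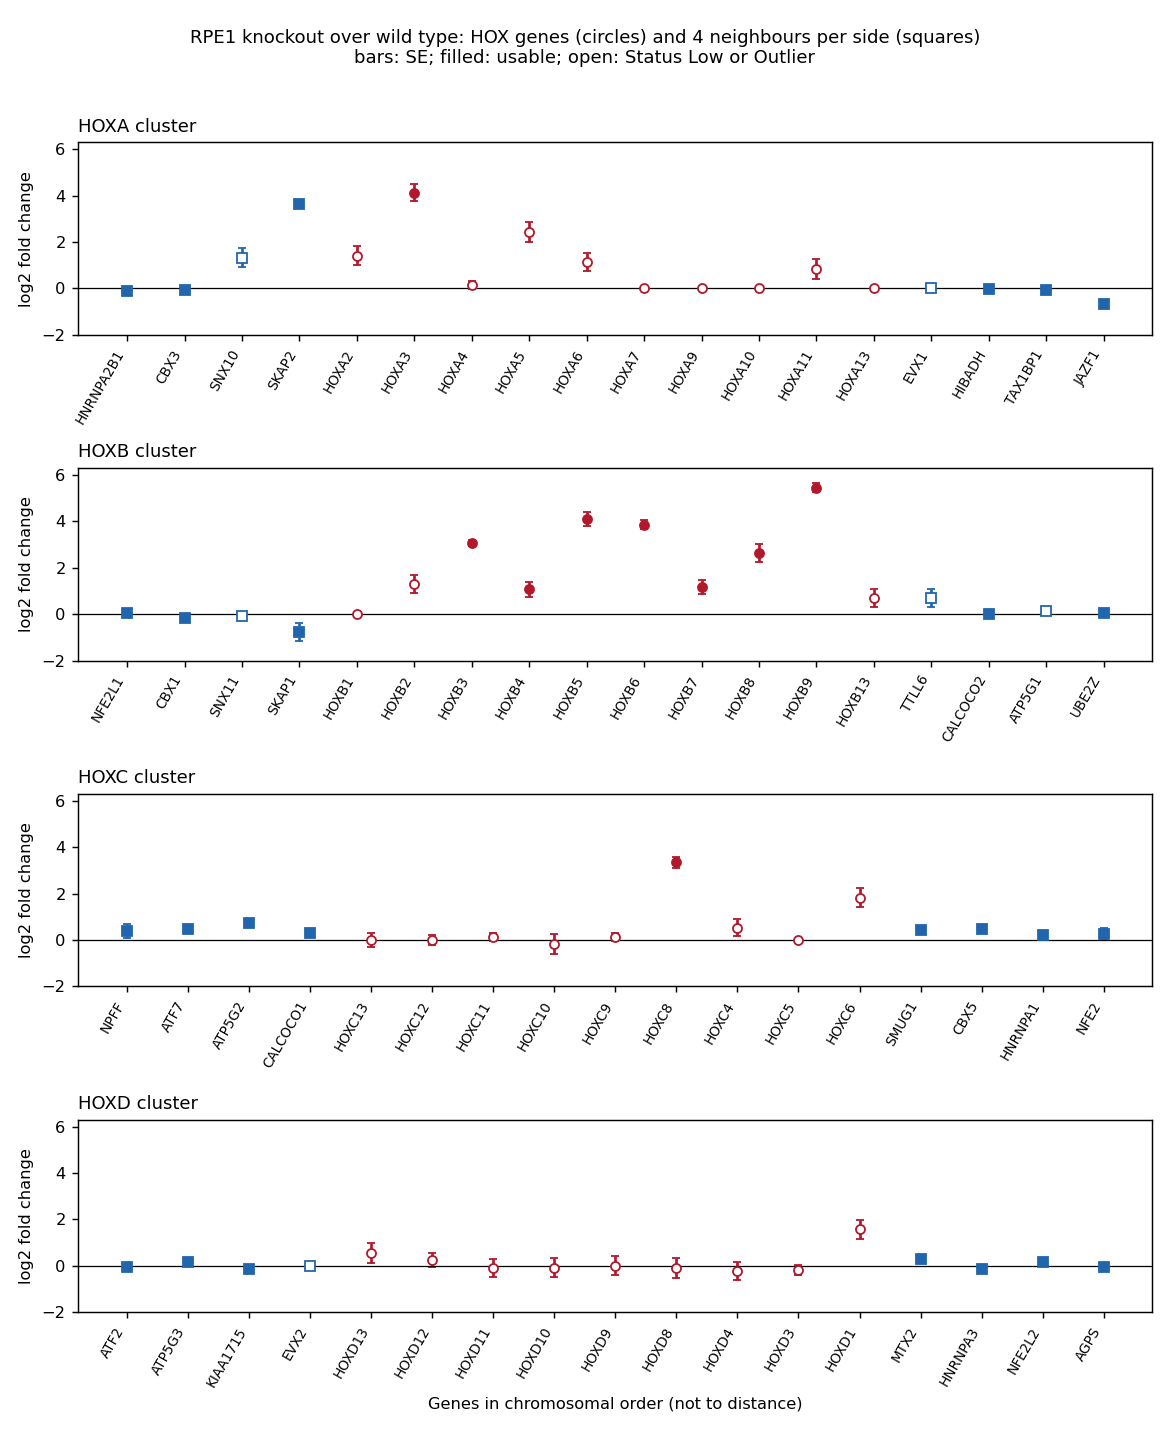
Log2 fold change, knockout over wild type RPE1, with SE bars, of the HOX genes shown (circles) and the 4 nearest protein-coding genes on each side (squares), in the order of their annotated starts and not to distance; filled points had a usable test and open ones the Status Low or Outlier. HOXB9 stands highest at 5.46, and SKAP2 at 3.63 stands highest of the neighbours.

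The 2 TetOn lines are also RPE1 cells, and they differed in HOX levels from each other and from the lines of the knockout comparison. These tables were normalised separately, and the median gene had 0.64 times (TetOn clone 5) and 0.708 times (TetOn clone 4) the mean count it had in the table of the knockout, so that smaller ratios between tables are not read. In TetOn clone 5 no HOX gene passed the limit and 30 of the 39 were listed at 0 in the authors' deposited table. Its highest were HOXB3 at 8.76, HOXB6 at 5.07, HOXB7 at 2.6 and HOXB4 at 1.29 in the authors' deposited table. In TetOn clone 4 the authors' deposited table listed 27 at 0 and had HOXB7 at 63.4, HOXB9 at 32.3, HOXB6 at 24.5 and HOXB3 at 19.8. The highest of its low members were HOXB5 at 4.04, HOXB4 at 3.84 and HOXC8 at 3.81 in the authors' deposited table. All 11 HOXA genes were listed at 0 in both TetOn lines, HOXA3 among them.

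HOXB9 had 0.0261 times as much in clone 5 as in clone 4 (0.842 and 32.3) in the authors' deposited tables, HOXB7 0.041 times (2.6 and 63.4), HOXB6 0.207 times (5.07 and 24.5) and HOXB3 0.442 times (8.76 and 19.8). The median gene had 0.902 times as much, and 1.04% of the 12445 genes over 10 in clone 4 were more than 4-fold lower in clone 5. Since no HOX gene had a usable value in both tables, the difference between the TetOn lines was not tested. HOXB7 at 63.4 in TetOn clone 4 was above its implied level of 32.8 in the knockout and 14.6 in wild type RPE1. For HOXB9 the order was otherwise, with 704 implied in the knockout, 32.3 in TetOn clone 4, 16 implied in wild type and 0.842 in TetOn clone 5. These levels come from separate tables and carry no error, so neighbours in such an order, as 32.3 and 16, were not shown to differ.

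**Figure D3:**
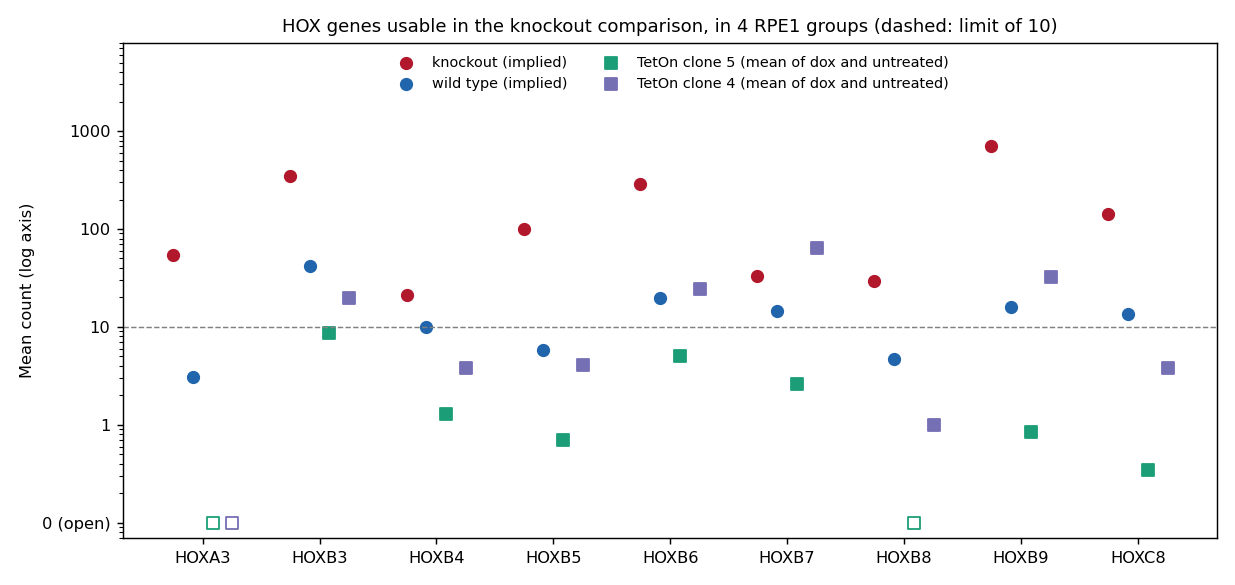
Mean count (log axis) of the 9 HOX genes usable in the knockout comparison, as levels implied for the knockout and wild type (circles) and as the mean over doxycycline-treated and untreated libraries of TetOn clone 5 and clone 4 (squares); open squares are listed at 0 and the dashed line is the limit of 10. The knockout stands highest for 8 of the 9 genes, TetOn clone 4 is highest for HOXB7, and TetOn clone 5 is under 10 throughout.

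Induction of TRIM37 for 24 h called no HOX gene. In TetOn clone 4, where 1.95% of all usable genes were called (0.716% higher and 1.23% lower), the 4 testable members had log2 fold changes in the authors' deposited table of 0.33 for HOXB9 (SE 0.19, q = 0.612), 0.25 for HOXB6 (SE 0.196, q = 0.781), 0.16 for HOXB3 (SE 0.201, q = 0.907) and -0.031 for HOXB7 (SE 0.158, q = 0.989). None of the 4 had an unadjusted two-sided normal p under 0.05, the smallest being 0.0806, against 10.1% of all usable genes. In TetOn clone 5, where 2.97% of all usable genes were called (0.795% higher and 2.17% lower), no member could be tested. Its log2 fold changes for the members with a mean count of 1 or more were -0.059 for HOXB3, 0.13 for HOXB6, 0.18 for HOXB7 and -0.076 for HOXB4 in the authors' deposited table. In both TetOn lines no gene with a mean count under 1 had a fold over 0.19 in size, beside 0.83 in the knockout. Small folds of scarce genes there are thus not read as a lack of response.

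In CHP-134 the same 18 HOX genes were usable against wild type in both mutant clones, which share their wild type libraries. In clone 2, 5 were higher than in wild type (HOXA7, HOXA11, HOXA13, HOXD3 and HOXD9), 2 were lower (HOXC8 and HOXC10) and 11 were not called, beside 46.2% of all usable genes called in either direction, 22% higher and 24.2% lower. In clone 1, 5 were higher (HOXA7, HOXC4, HOXC9, HOXC10 and HOXD13), none lower and 13 not called, beside 18.7% called in either direction, 9.6% higher and 9.07% lower. The share of HOX genes called was thus not above that of all genes in clone 2, and the 5 of 18 in clone 1 is not read as a result about HOX genes. The median log2 fold change of the 18 was 0.13 in each clone, beside -0.012 and -0.007 over all usable genes in clone 2 and clone 1.

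In the HOXA cluster, HOXA7, a trunk gene, was higher in both clones. It stood at an implied 1067 in clone 2 against 575 in wild type, and the authors' deposited table gave a log2 fold change of 0.89 (SE 0.0954, q = 3.61e-19). In clone 1 it stood at an implied 703 against 539 in wild type, with 0.38 (SE 0.0981, q = 0.00135) in the authors' deposited table. HOXA13, a gene of the distal limb and hindgut, stood at an implied 59.2 in clone 2 against 20.4 in wild type, with a log2 fold change of 1.54 (SE 0.266, q = 7.31e-08) in the authors' deposited table. In clone 1 it stood at 10.5 against 14.7 in wild type, with -0.49 (SE 0.282, q = 0.228) in the authors' deposited table. The 2 implied wild type values of HOXA13, 20.4 and 14.7, should be equal up to scaling. Their ratio was 1.38, beside a median of 1.06 over 12579 genes, so the implied levels of HOXA13 are coarse. Other low members were nearer to the median, such as HOXA10 at 1.03, HOXD1 at 1.08 and HOXD11 at 1.1. Why HOXA13 departed from it was not tested. HOXA11, which acts in limb and kidney, had a log2 fold change of 0.50 in clone 2 (SE 0.107, q = 1.94e-05) and -0.21 in clone 1 (SE 0.122, q = 0.23) in the authors' deposited tables. HOXA10 was called in neither, at -0.67 (q = 0.0679) and -0.22 (q = 0.626) in clone 2 and clone 1 in the authors' deposited tables.

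In the HOXC cluster, HOXC10, a lumbar gene of the mouse spinal cord, moved furthest and in opposite directions. It stood at an implied 22.8 in clone 2 against 85 in wild type, with a log2 fold change of -1.90 (SE 0.224, q = 5.96e-16) in the authors' deposited table. In clone 1 it stood at an implied 183 against 86.7 in wild type, with 1.08 (SE 0.163, q = 2.64e-09) in the authors' deposited table. HOXC8, a thoracic gene, stood at an implied 354 in clone 2 against 610 in wild type, with -0.78 (SE 0.104, q = 1.09e-12), and had 0.053 (SE 0.0718, q = 0.672) in clone 1 in the authors' deposited tables. HOXC4 had log2 fold changes of 0.14 (SE 0.084, q = 0.151) in clone 2 and 0.47 (SE 0.0755, q = 1.8e-08) in clone 1, and HOXC9 of -0.11 (SE 0.107, q = 0.401) in clone 2 and 0.28 (SE 0.105, q = 0.045) in clone 1 in the authors' deposited tables. HOXC5 and HOXC6 were called in neither, with log2 fold changes between -0.068 and 0.19 in the authors' deposited tables. HOXC4, HOXC5 and HOXC6 overlap in the annotation and share a start, so the authors' counting may have split or dropped their shared reads.

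The HOXD cluster had 8 usable genes, none with a log2 fold change over 0.46 in size. HOXD3 had a log2 fold change of 0.39 (SE 0.121, q = 0.00395) in clone 2 and 0.26 (SE 0.114, q = 0.0986) in clone 1 in the authors' deposited tables. HOXD9 had 0.46 (SE 0.111, q = 0.000197) in clone 2 and 0.21 (SE 0.131, q = 0.266) in clone 1 in the authors' deposited tables. HOXD13, a limb and genital gene, had 0.17 (SE 0.0937, q = 0.135) in clone 2 and 0.42 (SE 0.0941, q = 0.000157) in clone 1 in the authors' deposited tables. HOXD1, HOXD4, HOXD8, HOXD10 and HOXD11 were called in neither clone, with log2 fold changes between -0.32 (HOXD10, clone 1) and 0.23 (HOXD1, clone 2) in the authors' deposited tables. Mean counts of the 8 ranged from 11.8 (HOXD1) to 384 (HOXD13) in the authors' deposited table of clone 2 and from 10.2 (HOXD1) to 400 (HOXD13) in that of clone 1, with HOXD1, HOXD4, HOXD10 and HOXD11 under 30 in both. When the ratios of fold change to SE were divided by their central spread over all genes, 3.08 in clone 2 and 1.84 in clone 1, none of the 7 calls in clone 2 and 2 of the 5 in clone 1 (HOXC4 and HOXC10) were left, beside 1.98% of all usable genes called in clone 2 and 1.9% in clone 1.

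The difference between the clones was tested directly as clone 2 minus clone 1, with Benjamini-Hochberg adjustment over 12579 genes, of which 20.5% were called. Of the 18 HOX genes 7 were called, 3 higher and 4 lower in clone 2. The 3 higher were all HOXA genes: the difference in log2 fold change was 2.03 for HOXA13 (SE 0.388, adjusted p = 2.86e-06), 0.71 for HOXA11 (SE 0.162, adjusted p = 0.000148) and 0.51 for HOXA7 (SE 0.137, adjusted p = 0.00193). The 4 lower were all HOXC genes: it was -2.98 for HOXC10 (SE 0.277, adjusted p = 5.96e-25), -0.84 for HOXC8 (SE 0.126, adjusted p = 1.18e-09), -0.39 for HOXC9 (SE 0.15, adjusted p = 0.0464) and -0.33 for HOXC4 (SE 0.113, adjusted p = 0.0207). None of the 8 HOXD genes was called, with differences from -0.26 (HOXD13) to 0.31 (HOXD11). Against a rescaled null HOXC8 and HOXC10 kept their calls. The genes around the clusters had log2 fold changes from -0.56 (JAZF1) to 0.52 (CALCOCO1) in clone 2 and from -0.22 (CBX5) to 0.28 (CALCOCO1) in clone 1 in the authors' deposited tables. As clone 2 minus clone 1, the difference was called for JAZF1 at -0.75 (adjusted p = 0.00077) and TAX1BP1 at -0.27 (adjusted p = 0.0052). MTX2 at -0.28 (adjusted p = 0.000742) and CBX5 at 0.18 (adjusted p = 0.0231) were called as well. The other neighbours usable in both tables were not.

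**Figure D4:**
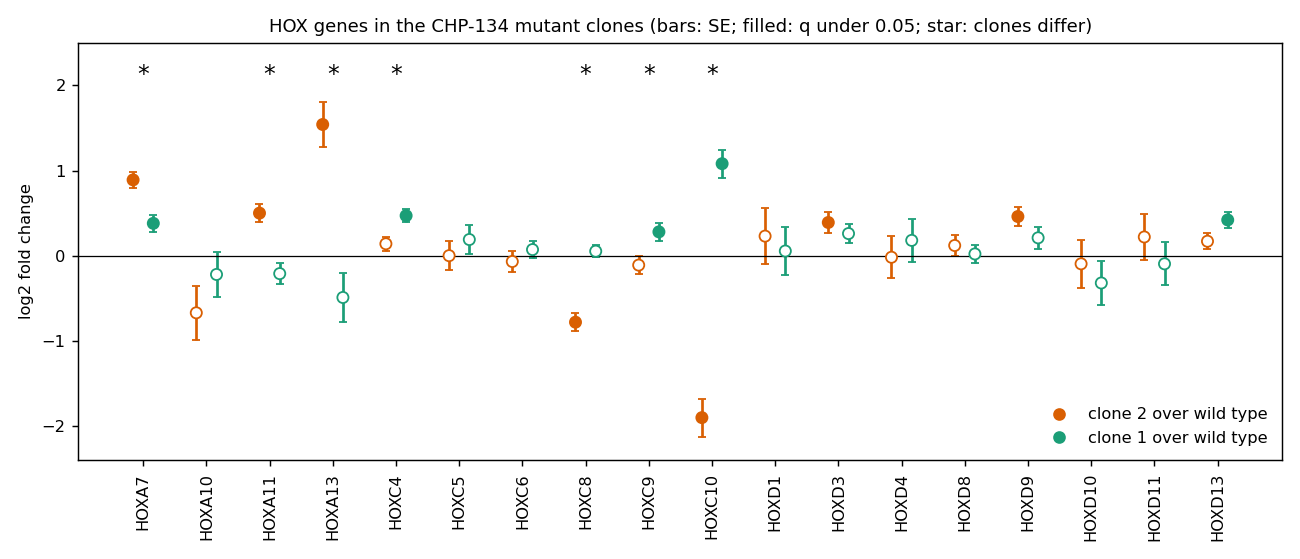
Log2 fold change over wild type, with SE bars, of the 18 HOX genes usable in CHP-134 mutant clone 2 (orange) and clone 1 (green); filled points had q under 0.05 and stars mark genes whose change differed between the clones. HOXC10 stands at -1.90 in clone 2 and 1.08 in clone 1, the starred HOXA genes are higher in clone 2 and the starred HOXC genes lower, and no HOXD gene is starred.

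Of 27 noncoding RNA genes listed for the HOX clusters, 16 had a symbol in the tables. Reads of antisense genes and their HOX partners cannot be told apart unless counting used strand, which the sources used here do not state. In the RPE1 knockout HOXD-AS1, in the HOXD cluster, was the only usable one. It had a mean count of 13.1 and a log2 fold change of 2.97 (SE 0.402, q = 1.01e-12) in the authors' deposited table. These values imply a wild type level under 10, so HOXD-AS1 passed the limit only through the knockout. All 9 HOXD coding genes were under the limit, and the call is not read as a result about the cluster. HOXA11-AS and HOTAIR, a HOXC transcript, had mean counts of 4.27 and 2.3 there in the authors' deposited table. In CHP-134 HOXD-AS1 had log2 fold changes of 0.37 (q = 0.00208) in clone 2 and -0.30 (q = 0.0583) in clone 1 in the authors' deposited tables, and the difference between the clones was 0.67 (adjusted p = 0.000329). HOXA11-AS had 0.74 (q = 0.00975) in clone 2 and -0.086 (q = 0.873) in clone 1 in the authors' deposited tables, and its difference of 0.82 was not called (adjusted p = 0.108). HOTAIR had mean counts of 6.7 and 13.6, and HOTTIP, at the HOXA13 end, 6.3 and 1.24, in the authors' deposited tables of clone 2 and clone 1. These mean counts pool each clone with wild type. HOTAIR passed the limit in clone 1 only, where none of the 4 usable noncoding RNA genes was called. HOTAIR had the lower mean count in the clone in which HOXC10 was lower, and HOTTIP the higher one where HOXA13 was higher. The difference between the clones could be tested for neither, and both genes were chosen after their values were seen.

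Of the 9 TALE cofactor genes in the list, 8 passed the count limit in the RPE1 knockout, where PKNOX2 was listed at 0. In CHP-134 none had a mean count under 48.9 in either comparison. In the RPE1 knockout 3 of 8 usable ones rose and 1 fell, with a median log2 fold change of 0.06: the authors' deposited table gave, among others, MEIS2 0.59 (q = 0), PBX3 0.36 (q = 7.06e-31) and MEIS3 -1.35 (q = 4.66e-10). In clone 2 of CHP-134 3 of 8 rose and 3 fell, among them MEIS1, at -0.40 (q = 4.58e-11), PKNOX1 at -0.29 (q = 3.07e-07) and MEIS3 at 0.58 (q = 5.43e-07) in the authors' deposited table. In clone 1, 3 of 8 rose and none fell, among them MEIS1 at 0.24 (q = 0.0013) and MEIS2 at 0.22 (q = 0.000242) in the authors' deposited table. MEIS1 differed between the clones by -0.64 (adjusted p = 9.04e-13). Neither TetOn line had a called TALE gene among 7 usable ones, beside 2.97% of all usable genes in TetOn clone 5 and 1.95% in TetOn clone 4. Either way, 53.6% of all usable genes were called in the knockout, 46.2% in clone 2 and 18.7% in clone 1 of CHP-134. The TALE counts are not read as a result about these genes.

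Genes of the complexes that silence or activate HOX clusters were called in both directions. Over all usable genes, 53.6% were called either way in the knockout, 46.2% in clone 2 and 18.7% in clone 1 of CHP-134. The counts below are not read as a result about these complexes. Of 15 usable Polycomb genes in the RPE1 knockout 6 rose and 5 fell, with a median log2 fold change of 0.01. The 4 with the smallest q in the authors' deposited table were PHC2 (0.17), RING1 (-0.29) and RNF2 (0.33), of the complex that ubiquitinates histone H2A, and EZH2 (0.17), which methylates histone H3. BMI1, of the complex that ubiquitinates H2A, was called higher in all 3 comparisons of mutant with wild type, at 0.71 (SE 0.253, q = 0.0112) in the knockout, 0.88 (SE 0.281, q = 0.00561) in clone 2 and 0.79 (SE 0.247, q = 0.0114) in clone 1 in the authors' deposited tables. Both CHP-134 comparisons share wild type libraries. The share of all genes called higher in all 3 comparisons was not worked out, so the agreement is not read as particular to BMI1. In clone 2 of CHP-134 4 of 15 rose and 5 fell, with EZH2 at -0.36, PHC3 at -0.38, CBX7 at 1.00 and CBX2 at 0.32 in the authors' deposited table, and in clone 1, 1 rose and 4 fell, with SUZ12 at -0.21, EED at -0.28 and RNF2 at -0.16 in that of clone 1. Of the Trithorax genes and demethylases of H3K27, 2 of 7 usable ones rose and 1 fell in the knockout, where the authors' deposited table gave WDR5 0.15, MEN1 0.16 and the demethylase gene KDM6A -0.21. In clone 2, 3 of 8 rose and 1 fell, MLL2 at 0.49 being the largest in the authors' deposited table, and in clone 1 none rose and ASH2L fell, at -0.17 in the authors' deposited table. No gene of either list was called in the TetOn lines.

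Homeobox genes outside the clusters were also among the called genes. The shares of all usable genes called either way were 53.6% in the knockout, 46.2% in clone 2 and 18.7% in clone 1 of CHP-134. Beside these shares, the small counts below are not read as a result about the lists. Of 25 genes of the same ANTP class, 7 were usable in the RPE1 knockout, of which 4 rose and 1 fell: the authors' deposited table gave DLX5 2.31 (q = 4.79e-17), DLX6 1.12 (q = 0.000845), MSX1 0.91 (q = 1.18e-10), DLX1 0.57 (q = 4.66e-15) and GSX2 -1.80 (q = 2.12e-07). EVX1, EVX2 and CDX2, relatives beside or upstream of the HOX clusters, were listed at 0 there. In clone 2 of CHP-134, 3 of 10 rose and 1 fell, with DLX2 at 1.89, DLX1 at 1.42, GBX2 at 0.57 and DLX3 at -1.06 in the authors' deposited table, and in clone 1 GBX2 was at 0.55 and DLX3 at -0.22 in the table of clone 1. Retinoic acid, made by ALDH1A enzymes and degraded by CYP26 enzymes, activates 3′ HOX genes. Of the 13 genes for its synthesis, breakdown, transport and receptors, 3 of 8 usable ones rose and 2 fell in the knockout, where the authors' deposited table gave the receptor genes RARG 0.91 and RARA -0.62, ALDH1A3 0.30 and CYP26B1 -0.65. RARG lies on chromosome 12, with its median of 0.51. In clone 2 of CHP-134, 1 of 10 rose and 4 fell, ALDH1A1 furthest at -5.24, then CRABP2 at -1.27 and CYP26B1 at -0.93 in the authors' deposited table. In clone 1, CYP26B1 was the 1 called of 11, at -0.72 in the authors' deposited table, and ALDH1A1 differed between the clones by -5.46 (adjusted p = 1.27e-57). Whether these genes had a part in the HOX values was not tested.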

How the data were processed

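Libraries were grouped by the labels. STAR and DESeq2 were the authors' tools, per the submitters' processing notes, without versions. Which build, annotation, strand setting and counting rule they used is not given in the sources used here. The authors deposited 5 tables of their own comparisons and, per the file headers, each gives a Status, a mean count whose scaling is not stated, a log2 fold change, its standard error and a q value (adjusted p-value), to 3 significant digits. The plan allowed for counts per library, but no count model was fitted, and a gene was called where the deposited q was under 0.05. No library depth is known, and precision is that of the authors' SE. The direction of each table was set by the sign of TRIM37.

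The level of each group was computed from the mean count and the fold change, weighting groups by their equal numbers of libraries. Differences between clones were tested by dividing the difference of the log2 fold changes by its SE (the SEs of both tables added as squares), with a two-sided normal p and Benjamini-Hochberg adjustment over all genes usable in both tables, which is conservative for the CHP-134 clones because they share wild type libraries. The calculation was tested on simulated data. Chromosomes, gene order and promoters came from RefSeq on GRCh38.p14, and 20 of 39 HOX genes matched a promoter entry. All HOX genes are in the counts, single values of some genes are not reported here, and of other lists at most 4 called genes with the smallest q per comparison are named, beside genes named as neighbours or chosen after their values were seen (DLX6, EVX1, EVX2, CDX2, HOTTIP, HOTAIR and, outside clone 1, BMI1). The members and lists were chosen with earlier results of these data known. Alternatives were other q thresholds, a minimum fold change, other count filters, statistics divided by their central spread (a rescaled null), keeping genes with the Status Outlier, and subtracting chromosome medians. Python 3.11.15, pandas 2.3.3 and SciPy 1.17.1 were used.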

Additional observations from a re-analysis of the deposited data

Results flagged for a closer look

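For 7 HOX genes the change in CHP-134 differed between mutant clone 2 and mutant clone 1, by a test of the difference of the log2 fold changes in the authors' deposited tables, which called 20.5% of all genes. As clone 2 minus clone 1, it was 0.51 for HOXA7, 0.71 for HOXA11 and 2.03 for HOXA13, and -0.33 for HOXC4, -0.84 for HOXC8, -0.39 for HOXC9 and -2.98 for HOXC10. Against a rescaled null HOXC8 and HOXC10 kept their calls, and the other 5 did not (adjusted p = 0.073 for HOXA13 and 0.206 or more for the rest). With 1 clone of each kind, a difference between the mutants and a difference between any 2 clones of the line cannot be told apart.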

How the results depend on the processing

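In the RPE1 knockout the 9 calls became 15 with no filter on Status or mean count (40.6% of all genes called) and 5 when mean counts under 50 were left out (56.3%), where 4 genes were no longer tested. With a rescaled null (9.7%) HOXB4, HOXB7 and HOXB8 lost their calls, and 6 were left. Under the other alternatives all 9 were called. In CHP-134 clone 2 the 7 calls became 2 when the log2 fold change also had to reach 1 in size (4.07% of all genes) and 0 with a rescaled null (1.98%). In clone 1 the 5 calls became 1 (1.11%) and 2 (1.9%) under the same settings. The 7 differences between these clones became 2 with a rescaled null (4.76%). HOXD4 in clone 2 turned from -0.018 to 0.075 with the chromosome median subtracted, and was not called. Why calls were lost under a rescaled null was not tested. The ratios of mean counts between TetOn clone 5 and clone 4, divided by the median ratio of all genes, a step chosen after seeing the data, were 0.0289 for HOXB9, 0.0455 for HOXB7, 0.229 for HOXB6 and 0.491 for HOXB3. Over single genes, 348 values kept direction and call, 24 lost the call, 4 gained it and 1 turned. No paired analysis was possible because the tables hold no value per library. For the same reason, leaving out replicates and another normalisation were not run. Mean counts of at most 10 limit what can be said of the low members, 30 of 39 in the knockout.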
